A study of Mus musculus with 16 samples.

Results

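The 7 genes described here encode the sterol-regulated transcription factor SREBP2 and the proteins that hold it, carry it, cut it or act on lipoprotein receptors. They are Srebf2, Scap, Insig1, Insig2, Mbtps1, Mbtps2 and Mylip, and they were taken by name from a table of 23258 genes of mouse liver. All 7 were found in the table, and all 7 passed the filter on low counts with 16830 genes in all. Liver RNA of C57BL/6 mice was depleted of ribosomal RNA and sequenced in 16 libraries. They came from miR-33 Liver knockout mice on a high-fat diet (n = 5), wild-type mice on a high-fat diet (n = 4), knockout mice on chow (n = 4) and wild-type mice on chow (n = 3). The deposited name of the table carries Alb-Cre, a recombinase under the albumin promoter, which is active in hepatocytes. Whether the libraries are separate animals is not stated in the labels, which give no age, sex or batch, so the p-values speak of the spread among libraries, which may be technical. Sample titles carry numbers from a different series on each diet, so an effect of the series and one of diet cannot be told apart.

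SREBP2 is made as a membrane protein of the endoplasmic reticulum, where SCAP binds it and senses cholesterol. When sterols are plentiful, INSIG proteins hold the SCAP and SREBP complex in place. When sterols fall, SCAP escorts SREBP2 to the Golgi, where the site-1 and site-2 proteases (Mbtps1 and Mbtps2) release the part that enters the nucleus and turns on genes of cholesterol synthesis and uptake. Mylip, also called IDOL, is a ubiquitin ligase induced by oxysterol receptors (LXR) that sends lipoprotein receptors to degradation. The microRNA miR-33 lies in an intron of Srebf2 and is known to repress the cholesterol exporter Abca1.

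The mature strands of miR-33 are shown because they are the deleted item and are made from the host gene's own transcript. Capitals mark the seed, bases 2 to 8 from the 5′ end, and the sequences and positions are from RefSeq on GRCm38.p6, the mm10 assembly.
mmu-miR-33-5p: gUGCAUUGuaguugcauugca
mmu-miR-33-3p: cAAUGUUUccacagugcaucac
The 5p strand lies at chr15:82198127-82198147 and the 3p strand at chr15:82198167-82198188, both on the plus strand. No other mouse miRNA in that table shares either seed. The hairpin of 69 bases, at chr15:82198122-82198190, falls inside intron 16 of the 19-exon transcript Srebf2-201 (intron at chr15:82197787-82199634). The complement of the 5p seed, CAATGCA, was absent from the annotated 3′ UTR of all 7 genes, and 8.4% of 13161 tested genes with a 3′ UTR held it. The microRNA itself was not analysed here and Srebf2 was counted as a whole gene, so no value here checks the deletion.

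Promoter windows of Srebf2, Insig1 and Scap follow, because Srebf2 and Insig1 moved with the cholesterol synthesis genes between libraries and Scap had the smallest adjusted p of the 7 between diets. Each runs from 250 bases before to 50 bases after a RefSeq start on GRCm38.p6, plus strand. Capitals mark every match, on both strands, to 4 motifs: TCACCCCA, a core of known sterol regulatory elements, the CCAAT box, the GC box GGGCGG and the E-box palindrome CACGTG.
Srebf2, chr15:82147019-82147318: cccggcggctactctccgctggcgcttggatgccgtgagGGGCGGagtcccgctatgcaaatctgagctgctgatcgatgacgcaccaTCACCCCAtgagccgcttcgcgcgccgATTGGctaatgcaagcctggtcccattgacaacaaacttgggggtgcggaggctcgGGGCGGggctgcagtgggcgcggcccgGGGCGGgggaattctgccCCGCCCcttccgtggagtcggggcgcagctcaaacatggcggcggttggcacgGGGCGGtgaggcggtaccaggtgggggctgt
Insig1, chr5:28071162-28071461: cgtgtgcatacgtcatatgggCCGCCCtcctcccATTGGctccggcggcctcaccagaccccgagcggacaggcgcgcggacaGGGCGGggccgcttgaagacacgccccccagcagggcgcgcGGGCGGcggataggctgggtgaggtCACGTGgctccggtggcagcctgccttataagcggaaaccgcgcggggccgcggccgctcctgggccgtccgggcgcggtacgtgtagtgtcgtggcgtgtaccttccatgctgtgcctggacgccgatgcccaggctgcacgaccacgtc
Scap, chr9:110333038-110333337: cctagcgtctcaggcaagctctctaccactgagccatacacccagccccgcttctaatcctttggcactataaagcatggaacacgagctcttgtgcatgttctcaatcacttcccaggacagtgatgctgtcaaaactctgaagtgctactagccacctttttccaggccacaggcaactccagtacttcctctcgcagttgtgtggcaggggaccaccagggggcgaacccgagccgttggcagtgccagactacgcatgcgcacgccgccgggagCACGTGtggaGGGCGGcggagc
The Srebf2 window held TCACCCCA 162 bases before the start and a reversed CCAAT box 135 bases before it, with GC boxes on both sides. The Insig1 window held a reversed CCAAT box at -216, GC boxes at -229 (reversed), -167 and -126, and CACGTG at -101. It held no TCACCCCA, which among the windows of the 7 genes was found for Srebf2 alone. The Scap window shown held CACGTG at 29 bases and a GC box at 39 bases after its start. Scap has another RefSeq start, with its window at chr9:110333106-110333405. Counted from that start, the same CACGTG lies at -40, with GC boxes at -30, 15 and 38. Among 32851 windows of the same length, 1.56% held TCACCCCA, 37.41% a CCAAT box, 35.66% a GC box and 7.15% CACGTG. These matches describe the letters only.

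Library totals ran from 20993930 to 29469645 estimated counts in high-fat knockout, 16149911 to 25823475 in high-fat wild type, 15888436 to 26821573 in chow knockout and 17502937 to 22902669 in chow wild type. The share of counts on CT010467.1, a ribosomal RNA gene, was 0.637% to 12.3% in high-fat knockout and 1.36% to 10.3% in high-fat wild type. On chow that share was 11.3% to 14.6% in knockout and 2.54% to 13.3% in wild type. In earlier work on these data, high-fat knockout 1 and chow wild type 3 stood apart from their groups, and values without both are given where a direction or a call changed. The liver label was checked on 10 hepatocyte markers such as Alb and Apoa1: their summed level was 68700 to 107000 CPM (counts scaled to the TMM-adjusted library size), and none was at 0. All levels below are CPM in that sense.

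Srebf2 spans chr15:82147266-82205376 on the plus strand (mm10, as all coordinates of genes here). It had 42.1, 40.7, 50.1, 54.4 and 59.9 CPM in high-fat knockout libraries, against 45.0, 51.1, 45.8 and 50.8 CPM in high-fat wild-type libraries. On chow it had 47.3, 59.1, 57.7 and 52.0 CPM in knockout libraries, against 65.4, 53.3 and 55.6 CPM in wild-type libraries. The genotypes overlapped on both diets, and the high-fat knockout libraries spread below and above all 4 high-fat wild-type libraries. The host gene of the deleted microRNA had a knockout log2 fold change of 0.04 ± 0.11 (SE) on high-fat diet, with a 95% interval of -0.19 to 0.26. On chow the log2 fold change was -0.11 ± 0.12, with an interval of -0.36 to 0.15 (edgeR adjusted p = 1.00 on high-fat diet and 0.944 on chow). Between diets, all 4 wild-type libraries on high-fat diet lay below all 3 on chow, but at -0.27 ± 0.12 on the log2 scale the difference did not pass (edgeR adjusted p = 0.104). In knockout the diets overlapped, and the value was -0.13 ± 0.11 (edgeR adjusted p = 0.38).

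Scap, which encodes the cholesterol-sensing escort, lies at chr9:110333288-110384950 on the plus strand. Its level was 83.6, 77.4, 75.3, 75.2 and 76.4 CPM in high-fat knockout and 72.2, 76.4, 76.9 and 79.0 CPM in high-fat wild type. On chow it was 112, 106, 125 and 126 CPM in knockout and 116, 116 and 130 CPM in wild type. Every high-fat library lay below every chow library, in both genotypes, with a gap from 83.6 to 106 CPM. Scap fell on high-fat diet in knockout to 0.662 of the chow level (95% interval 0.601 to 0.729, log2 -0.60 ± 0.07, edgeR adjusted p = 3.8e-06). In wild type it fell to 0.631 of the chow level (0.565 to 0.704, log2 -0.66 ± 0.08, edgeR adjusted p = 6.39e-06). The 2 falls differed by 0.07 ± 0.10 on the log2 scale, with an interval of -0.14 to 0.28 (edgeR adjusted p = 0.942). Knockout and wild type overlapped on both diets, and the log2 fold change was 0.03 ± 0.07 under the high-fat diet and -0.04 ± 0.08 under chow.

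The fall of Scap came with lower hepatocyte markers. Their summed level was 68700 to 88700 CPM in high-fat knockout against 94400 to 107000 CPM in chow knockout, and 71300 to 87600 CPM in high-fat wild type against 94400 to 101000 CPM in chow wild type. Of the 10 markers, 5 passed as lower in knockout and 7 in wild type, against 16.2% and 14.2% of all genes, and none passed as higher. Their median log2 fold changes were -0.57 and -0.67. In each genotype 2 of the 10 had a log2 fold change above 0, and none was at 0 CPM. Hnf4a, a hepatocyte transcription factor, had the smallest p of the 10 in each genotype. It fell by 0.98 ± 0.09 in knockout and by 0.88 ± 0.11 in wild type on the log2 scale. The markers' part in the result for Scap was not tested, and in bulk tissue fewer cells of a type and less RNA per cell cannot be told apart.

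**Figure D1:**
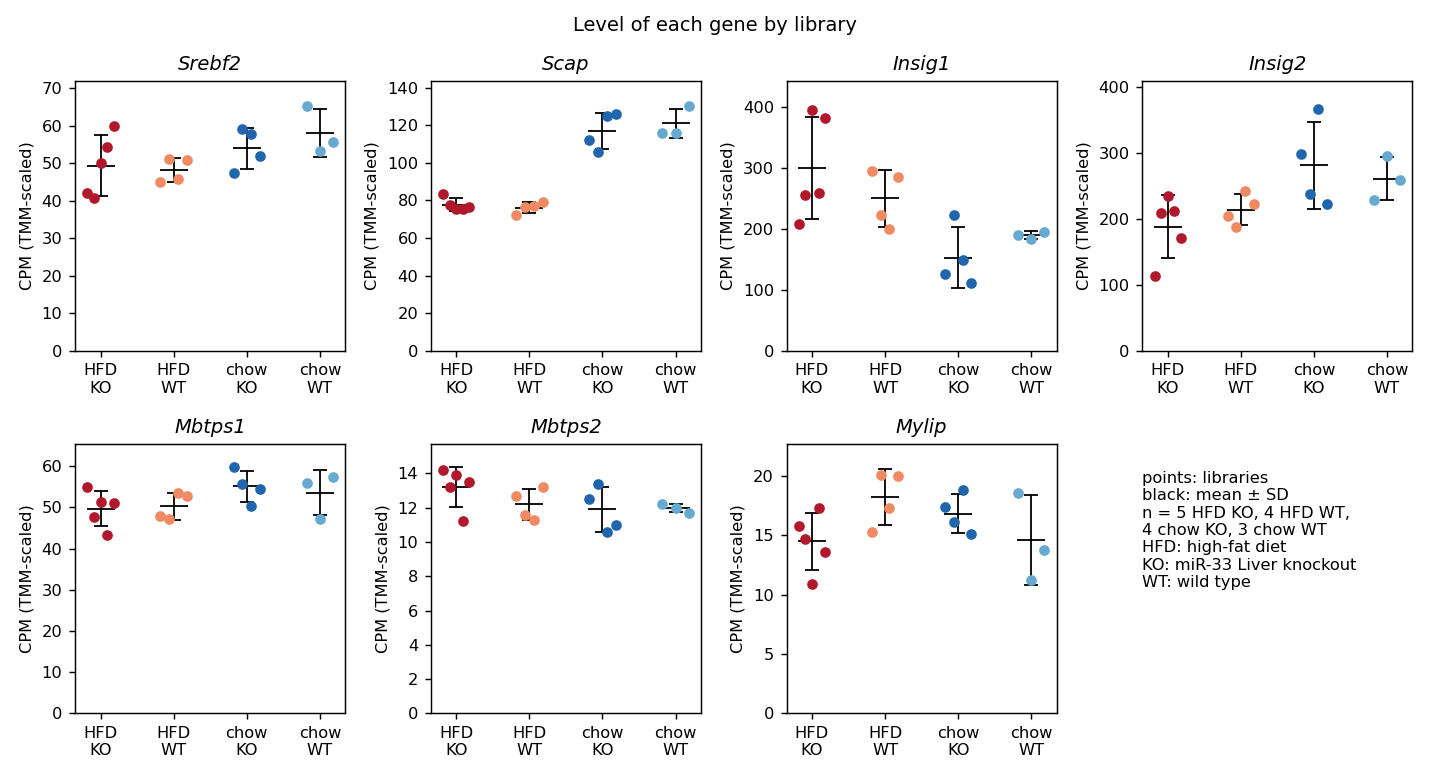
Level of the 7 genes (vertical axes, CPM from 0) in each library (points) by diet and genotype, with the mean and SD in black. For Scap the 9 high-fat libraries lie at 72.2 to 83.6 CPM and the 7 chow libraries at 106 to 130 CPM, while knockout and wild type overlap on each diet for all 7 genes.

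Insig1 and Insig2 encode the retention proteins that bind SCAP when sterols are plentiful. Insig1 (chr5:28071363-28078662, plus strand) is itself a known SREBP target. Insig2 (chr1:121304353-121332589, minus strand) is known to have a liver transcript that insulin represses. In knockout they passed in opposite directions between diets.

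Insig1 had 208, 256, 396, 260 and 383 CPM in high-fat knockout and 296, 223, 200 and 285 CPM in high-fat wild type. On chow it had 126, 224, 150 and 112 CPM in knockout and 191, 184 and 196 CPM in wild type. High-fat knockout libraries 3 and 5 were the highest of all, and chow knockout held the 3 lowest libraries and 1 that reached 224 CPM. Insig1 rose on high-fat diet in knockout, 1.97-fold (95% interval 1.42 to 2.74, log2 0.98 ± 0.22, edgeR adjusted p = 0.00376). That call passed in all 24 alternative settings, including those that left out each library in turn, although 1 chow library overlapped the high-fat range. In wild type the 4 high-fat libraries all lay above the 3 chow libraries, but the log2 fold change of 0.40 ± 0.25 did not pass (edgeR adjusted p = 0.251). Fitted on the wild-type libraries alone it was 0.416 and passed (edgeR adjusted p = 0.0352), the only 1 of 24 alternatives in which it did. The rise in knockout is not shown to differ from that in wild type: the difference was 0.58 ± 0.33 on the log2 scale, with an interval of -0.13 to 1.28 (edgeR adjusted p = 0.818). Knockout against wild type, Insig1 had a log2 fold change of 0.26 ± 0.22 under the high-fat diet and one of -0.32 ± 0.25 under chow, and neither passed.

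Insig2 had 113, 209, 234, 212 and 171 CPM in high-fat knockout and 204, 187, 242 and 222 CPM in high-fat wild type. On chow it had 299, 237, 366 and 222 CPM in knockout and 229, 296 and 259 CPM in wild type. The diets overlapped in both genotypes, and high-fat knockout 1, at 113 CPM, was the lowest library. Insig2 fell on high-fat diet in knockout to 0.668 of the chow level (95% interval 0.51 to 0.876, log2 -0.58 ± 0.18, edgeR adjusted p = 0.023). The log2 fold change stayed between -0.68 and -0.424 on leaving out each library in turn, but the call was lost in 4 alternatives. It was -0.551 without chow knockout 1 (edgeR adjusted p = 0.0585), -0.429 without chow knockout 3 (adjusted p = 0.0873) and -0.549 without high-fat knockout 5 (adjusted p = 0.0513). With the knockout libraries fitted alone it was -0.58 (edgeR adjusted p = 0.065). In wild type its log2 fold change was -0.29 ± 0.21 (edgeR adjusted p = 0.322), and knockout against wild type it was -0.19 ± 0.18 on high-fat diet and 0.11 ± 0.21 on chow. A gene model, Gm37174, overlaps Insig2 on the opposite strand, as 5830462I19Rik overlaps Scap, and no source used here says whether the counting used strand. Another, Gm49502, overlaps Srebf2 on the same strand, so reads of Srebf2 could be shared with it.

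Mbtps1 (chr8:119508156-119558735, minus strand) encodes the site-1 protease, a Golgi serine protease that makes the first cut in SREBP. It had 54.9, 47.8, 51.3, 43.4 and 51.2 CPM in high-fat knockout, 48.0, 47.2, 53.4 and 52.8 CPM in high-fat wild type, 59.8, 55.6, 50.4 and 54.5 CPM in chow knockout and 55.9, 47.3 and 57.5 CPM in chow wild type. All groups overlapped, and the 6 comparisons gave log2 fold changes between -0.15 and 0.04. For high-fat diet against chow in knockout, where the size was greatest, the 95% interval was -0.32 to 0.02.

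Mbtps2 (chrX:157535371-157598715, minus strand) encodes the site-2 protease, a metalloprotease that makes the second cut, within the membrane. It had 14.2, 13.2, 13.9, 11.2 and 13.5 CPM in high-fat knockout, 12.7, 11.6, 11.3 and 13.2 CPM in high-fat wild type, 12.5, 13.4, 10.6 and 11 CPM in chow knockout and 12.2, 12 and 11.7 CPM in chow wild type. All groups overlapped here too, and the log2 fold changes lay between -0.01 and 0.15. The retrogene Yy2 lies inside Mbtps2 on the same strand, so reads could be shared with it.

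Mylip (chr13:45389742-45412022, plus strand) had 15.8, 14.7, 10.9, 17.3 and 13.6 CPM in high-fat knockout and 15.3, 20.1, 17.3 and 20 CPM in high-fat wild type. On chow it had 17.4, 16.1, 18.8 and 15.1 CPM in knockout and 18.6, 11.2 and 13.8 CPM in wild type. The groups overlapped in every pair, and chow wild type spread over the range of most other libraries. Its knockout log2 fold change was -0.33 ± 0.14 on high-fat diet (95% interval -0.63 to -0.03, edgeR unadjusted p = 0.0325, adjusted p = 1.00). On chow it was 0.20 ± 0.17 (-0.15 to 0.55, edgeR adjusted p = 0.916). The difference of -0.53 ± 0.22 between these effects had an edgeR unadjusted p of 0.0265 and was not called after adjustment (adjusted p = 0.704). Between diets the log2 fold change was -0.22 ± 0.14 in knockout and 0.31 ± 0.17 in wild type (edgeR adjusted p = 0.259 and 0.169). Without chow wild type 1, the highest of its group, the wild-type value was 0.535 and passed (edgeR adjusted p = 0.0298), the only 1 of 24 alternatives in which it did.

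Read per comparison, none of the 7 genes passed between knockout and wild type under the high-fat diet, where 0.00594% of all genes tested passed (1 of 16830). Of the 7, 1 gene, Mylip, had an unadjusted p under 0.05, against 3.81% of all genes, and neither the DESeq2 Wald test nor voom called any. On chow, none of the 7 passed (background 0.00594%) and none had an unadjusted p under 0.05 (background 5.95%). For the mean of both diets, again none of the 7 passed (background 0.0178%) or had an unadjusted p under 0.05 (background 3.48%), and their log2 fold changes ran from -0.07 to 0.05. For the difference between the knockout effects, none of the 7 passed and 0% of all genes did, 1 of the 7 (Mylip) and 6.6% of all genes had an unadjusted p under 0.05, while DESeq2 called 13 genes, none of them among the 7, and voom called 0. In no knockout comparison on either diet were the groups of any of the 7 apart, against 1.24% of all genes on high-fat diet and 5.62% on chow.

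Between diets, 3 of the 7 passed in knockout (1 higher, 2 lower), against 33.6% of all genes (17.4% higher and 16.2% lower). In wild type 1 of the 7 passed, which was lower, against 29.4% of all genes (15.2% higher and 14.2% lower). These shares are near those of all genes. Groups were apart for 1 of the 7 in knockout (Scap), against 26.5% of all genes, and for 3 in wild type (Srebf2, Scap and Insig1), against 36% of all genes.

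**Figure D2:**
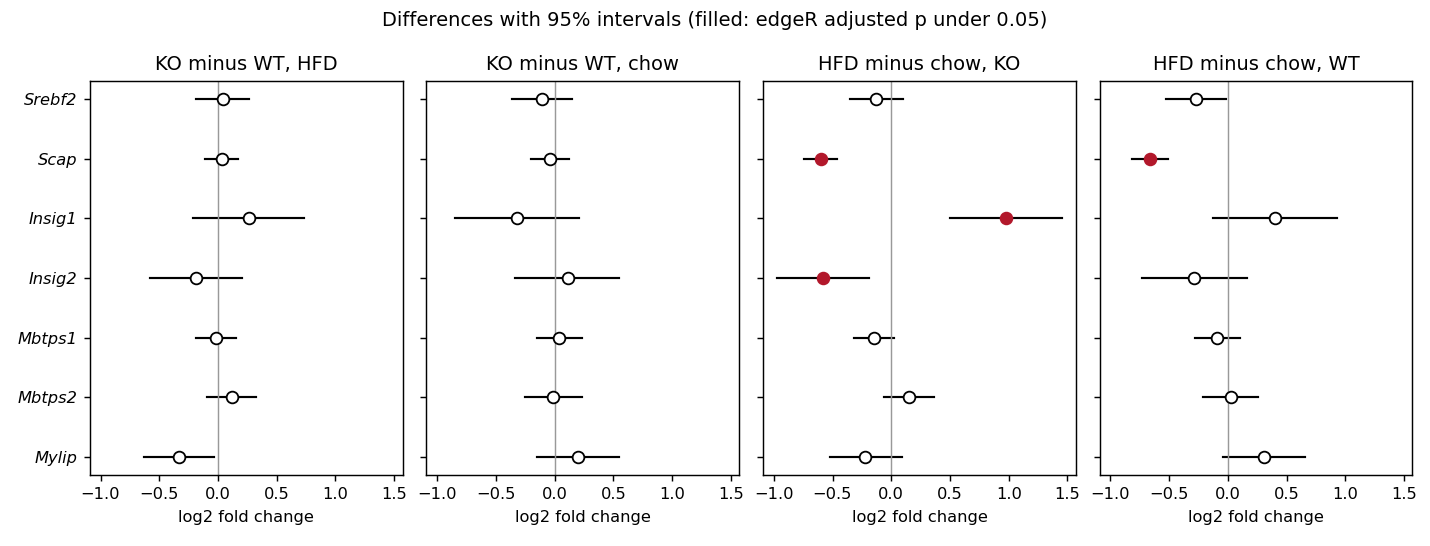
Log2 fold change (horizontal axes) with its 95% interval for the 7 genes in 4 comparisons, filled where the edgeR adjusted p was under 0.05. Scap is filled at -0.60 in knockout and -0.66 in wild type, and no gene is filled for knockout against wild type.

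Levels of different genes were compared per kilobase of exon. In high-fat knockout, Insig1 had 97.2 ± 27.1 CPM per kb (SD, n = 5), Insig2 54.1 ± 13.7, Scap 10.4 ± 0.47, Srebf2 6.88 ± 1.13, Mbtps1 4.72 ± 0.408, Mylip 4.47 ± 0.746 and Mbtps2 1.31 ± 0.117. The same order held in high-fat wild type, with Insig1 at 81.2 ± 15.1 and Insig2 at 61.5 ± 6.8 CPM per kb (n = 4), except that Mylip, at 5.62 ± 0.725, lay above Mbtps1, at 4.78 ± 0.306. The INSIG genes were thus far above their partner genes, and the site-2 protease was the least abundant of the 7 in every group.

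On chow the INSIG order turned: Insig2 had 80.9 ± 18.9 and Insig1 49.4 ± 16.2 CPM per kb in knockout (n = 4), and Insig2 had 75.2 ± 9.57 and Insig1 61.5 ± 2.0 CPM per kb in wild type (n = 3). Scap followed at 15.8 ± 1.31 in chow knockout and 16.2 ± 1.03 in chow wild type, then Srebf2 at 7.52 ± 0.755 and 8.09 ± 0.896 CPM per kb in the same groups. The ranges of the 2 INSIG genes overlapped in high-fat knockout, high-fat wild type and chow knockout and were apart in chow wild type. Mbtps1 and Mylip overlapped in every group, and all other neighbours in the order were apart. Measured per kilobase of the longest transcript, Mbtps1 was above Mylip in every group (7.32 ± 0.634 against 4.72 ± 0.787 CPM per kb in high-fat knockout). On that measure Srebf2 (8.01 to 11.8) and Mbtps1 (6.4 to 8.08 CPM per kb) overlapped in high-fat knockout. The level of 5 of the 7 genes moved there by more than its SD, as for Scap, at 18.4 ± 0.827 CPM per kb.

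**Figure D3:**
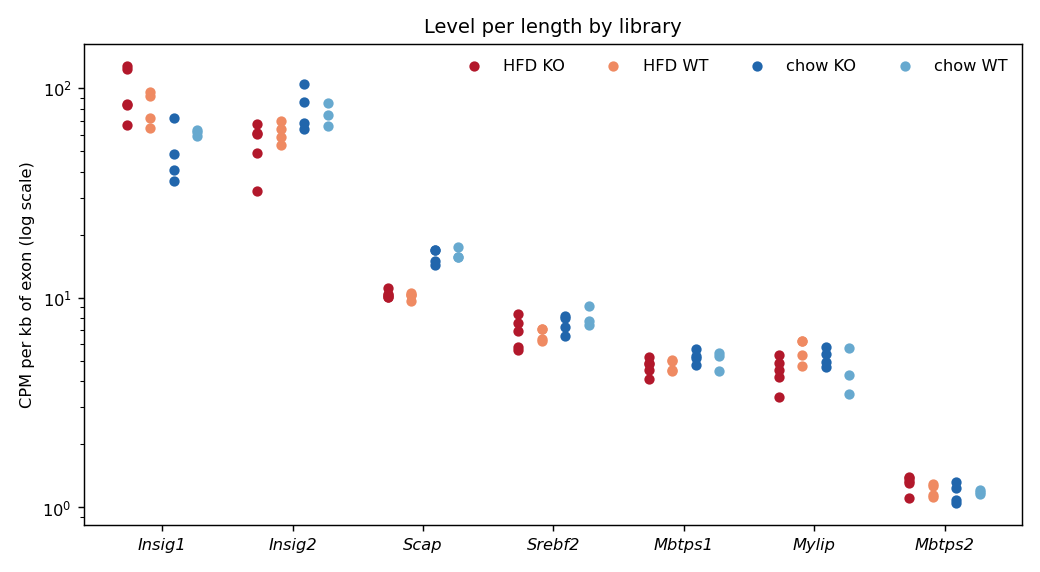
Level per length (vertical axis, CPM per kb of exon, log scale) of the 7 genes in each library (points), coloured by group. Insig1 lies above Insig2 on average on high-fat diet and below it on chow, and Mbtps2 is lowest in all libraries.

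The genes also differed in how much they varied within a group. The coefficient of variation of Insig1 was 27.9% in high-fat knockout, 18.6% in high-fat wild type, 32.8% in chow knockout and 3.26% in chow wild type. For Scap it was 4.51%, 3.76%, 8.3% and 6.38% in the same groups. To see what moved with these differences, the group mean was taken off each gene's log2 CPM and Pearson's r was computed over the 16 libraries. The nearest genes were sought among 6998 named genes above a limit on mean level. The cholesterol synthesis genes were not held to that limit, and medians over all genes used all genes tested. These correlations are descriptions: the libraries share depth and composition within each library, and no p is given.

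For Srebf2 the genes most like it were Sqle (r = 0.87), which encodes squalene epoxidase, Tfrc (0.85), the transferrin receptor, and Idi1 (0.85), an isomerase of the isoprenoid pathway. For Insig1 the gene most like it was Stard4 (0.90), a cholesterol transfer protein. Both genes thus had a sterol gene as the nearest neighbour. For Scap the nearest were Spns2, Gsap and Gm2a (0.88, 0.88 and 0.86), and for Insig2 they were Atp5b, Golga2 and Txndc17 (0.88, 0.84 and 0.84). The nearest to Mbtps1 were Smad1, Tmem260 and Pcnx (0.85, 0.84 and 0.82), to Mbtps2 Usp9x, Pias2 and Fgd4 (0.91, 0.90 and 0.90), and to Mylip Rrs1, Fbxl14 and Phf12 (0.84, 0.81 and 0.80). None of these 15 is on the sterol lists used below.

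Against the 20 cholesterol synthesis genes, Srebf2 had a median r of 0.76, with 19 above 0, and Insig1 a median of 0.75, with all 20 above 0. The median over all genes was -0.01 for each. The exception for Srebf2 was Ebp, a sterol isomerase, at -0.47, which had the lowest value for Insig1 too, at 0.09. Scap ran the other way, with a median r of -0.36 and 2 genes above 0, and Mylip had a median of -0.17. The medians were 0.19 for Insig2, 0.21 for Mbtps2 and -0.08 for Mbtps1. With high-fat knockout 1 and chow wild type 3 left out together, a choice made after the data were seen, Srebf2 and Insig1 had medians of 0.73 and 0.70, whereas Insig2 turned to -0.25 and Mbtps1 to 0.14. Scap then had a median of -0.27, with 4 genes above 0 in place of 2. Mylip had -0.09, with 6 above 0 in place of 1, and Mbtps2 had 0.33. Among the 7 genes themselves, r was 0.56 for Srebf2 with Insig1, 0.56 for Mbtps1 with Mbtps2 and -0.53 for Scap with Insig1.

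**Figure D4:**
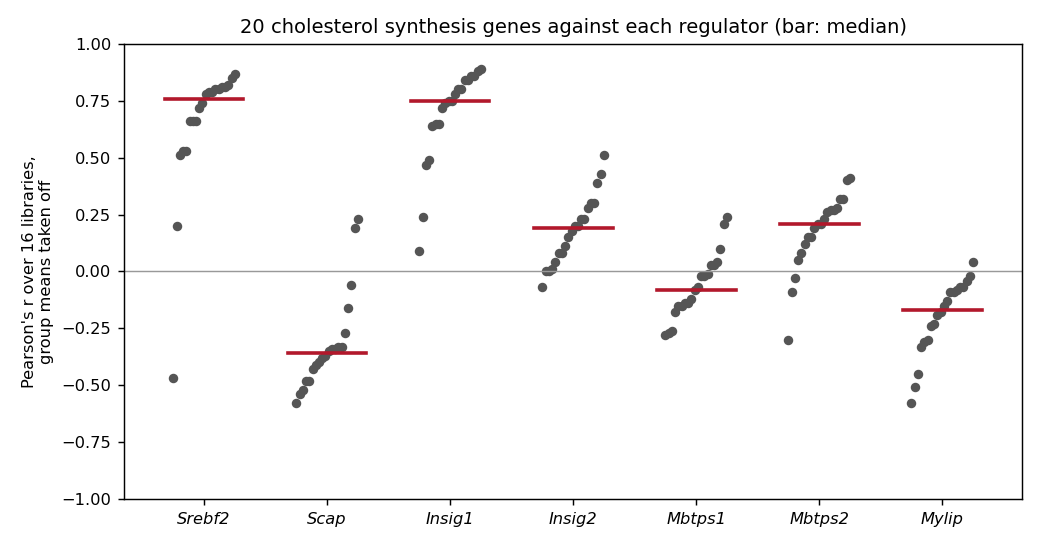
Pearson's r (vertical axis) over 16 libraries, group means taken off, between each of the 7 genes and each of 20 cholesterol synthesis genes (points), with the median as a bar. Medians are 0.76 for Srebf2 and 0.75 for Insig1, and -0.36 for Scap.

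The genes around SREBP2 were described by 7 lists. By edgeR no gene of any list passed between knockout and wild type, whether on either diet, for the mean or for the difference. For the 20 cholesterol synthesis enzymes, knockout minus wild type was above 0 for 19 on high-fat diet, with a median log2 fold change of 0.17 against 0.003 for all genes. On chow it was below 0 for all 20, with a median of -0.28 against 0.0 for all genes. These genes move together between libraries, as shown above, so 19 and 20 are not independent counts. Markers of some cell types, but not of all, lay the other way between genotypes. On chow, all 10 sinusoidal endothelial, all 10 Kupffer cell and macrophage and all 10 stellate cell and fibroblast markers were above 0. Their medians were 0.35, 0.57 and 0.21. On high-fat diet the same lists had medians of -0.39, -0.13 and -0.26, and 3, 2 and 1 of their markers lay above 0. The 4 neutrophil markers tested were all above 0 on chow and 0 were on high-fat diet. For lipid-associated macrophages 5 of 8 and 0 of 8 were above 0. Some lists did not turn: 6 of 6 B and plasma cell and 5 of 7 T and NK cell markers were above 0 on each diet. Of 6 cholangiocyte markers tested, 1 was above 0 on chow and 0 on high-fat diet, as were 1 and 0 of 5 erythroid markers. The 2 adipocyte markers tested were below 0 on each diet. Hepatocyte markers had medians of -0.03 on chow and 0.04 on high-fat diet. No marker passed between genotypes, and the markers' part in the cholesterol genes' values was not tested.

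Between diets, each list's count is read against the share of all genes that passed, 33.6% in knockout and 29.4% in wild type. Of the 20 cholesterol synthesis enzymes, 12 passed in knockout, 10 higher and 2 lower, with a median log2 fold change of 0.68 against -0.007 for all genes. In wild type 7 passed, 4 higher and 3 lower, a share near the 29.4% of all genes, with a median of 0.14 against -0.022. Acat2, a thiolase of the first step, had 77.2 ± 18.7 CPM in high-fat knockout (SD, n = 5) and 41.6 ± 4.23 in chow knockout (n = 4), and it rose by 0.89 ± 0.14 on the log2 scale (edgeR adjusted p = 1.64e-04). Tm7sf2, a sterol C14 reductase, fell by 1.35 ± 0.11 in knockout and by 1.5 ± 0.12 in wild type, against the direction of most of the list. Hsd17b7, a sterol ketone reductase, fell by 0.89 ± 0.19 in wild type. Without chow wild type 2, or without high-fat wild type 2, 4 of the 20 passed in wild type in place of 7.

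In the list of the lipoprotein receptor family and its handling, 8 of 11 tested passed in knockout, 3 higher and 5 lower, against 33.6% of all genes. In wild type 7 passed, 2 higher and 5 lower (4 in all without chow wild type 3), against 29.4% of all genes. Lrp8 was not tested. Vldlr, a receptor for triglyceride-rich lipoproteins, rose by 1.80 ± 0.34 in wild type, and Lrp1, which takes up chylomicron remnants, fell by 0.59 ± 0.12 in knockout and by 0.66 ± 0.14 in wild type.

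Of 11 genes of INSIG-linked ubiquitin ligases and degradation at the endoplasmic reticulum, 8 passed in knockout, 3 higher and 5 lower, against 33.6% of all genes, and 6 in wild type, 1 higher and 5 lower, against 29.4%. March6, a ligase for squalene epoxidase, fell by 0.60 ± 0.08 in knockout and by 0.69 ± 0.10 in wild type. Its falls were near those of Scap in size.

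Of 13 COPII genes, which form the carriers that take SCAP and SREBP to the Golgi, 4 passed in knockout and 4 in wild type, 2 higher and 2 lower in each, which is near the 33.6% and 29.4% of all genes. The wild-type count was 2 on leaving out chow wild type 2, chow wild type 3 or high-fat wild type 3, or the pair of high-fat knockout 1 and chow wild type 3. Sec16a, a scaffold of exit sites, fell by 0.61 ± 0.08 in knockout and by 0.34 ± 0.09 in wild type. Sec24a, a cargo-binding subunit, rose by 0.42 ± 0.08 in knockout. Preb, also called Sec12, which loads Sar1 with GTP, fell by 0.35 ± 0.09 in wild type.

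Of 8 tested substrates of the site-1 and site-2 proteases other than SREBP2, 4 passed in knockout, 2 higher and 2 lower, against 33.6% of all genes, and 5 in wild type, 3 higher and 2 lower, against 29.4%. Creb3l4 was not tested. Srebf1, the paralog that encodes SREBP1, had 159, 219, 151, 201 and 175 CPM in high-fat knockout against 19.3, 44.9, 41.4 and 29 CPM in chow knockout. In wild type it had 174, 148, 201 and 170 CPM on high-fat diet against 43.1, 31.3 and 63.1 CPM on chow. All high-fat libraries were above all chow libraries, and Srebf1 rose by 2.43 ± 0.25 in knockout and by 1.92 ± 0.28 in wild type (edgeR adjusted p = 7.71e-06 and 1.8e-04). Srebf2 in wild type lay the other way, with all values on high-fat diet below those on chow, but did not pass. Creb3l3, or CREBH, a liver factor cut by the same proteases, fell by 0.58 ± 0.06 in knockout and by 0.73 ± 0.07 in wild type, and Creb3l1 rose by 2.40 ± 0.30 in wild type.

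Of 9 lipogenic targets of SREBP1, 8 passed in knockout and 8 in wild type, all higher, against 17.4% and 15.2% of all genes that were higher, with median log2 fold changes of 1.62 and 1.27. Acly, which makes cytosolic acetyl-CoA, rose by 1.89 ± 0.24 in knockout. Acaca, acetyl-CoA carboxylase, rose by 1.62 ± 0.22 in knockout and by 1.93 ± 0.25 in wild type, and Fasn, fatty acid synthase, rose by 2.85 ± 0.49 in wild type. The wild-type count was 5 on leaving out chow wild type 2, chow wild type 3 or high-fat wild type 4. The knockout count was 5 on leaving out chow knockout 4, high-fat knockout 3 or high-fat knockout 5, and with the knockout libraries fitted alone.

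Of 11 LXR receptors and target genes, the group to which Mylip belongs, 6 passed in knockout, 4 higher and 2 lower, against 33.6% of all genes, and 4 in wild type, 3 higher and 1 lower, near the 29.4% of all genes. Abcg1, a sterol exporter, rose by 1.51 ± 0.21 and Arl4c by 1.65 ± 0.26 in wild type. Lpcat3, a phospholipid remodelling enzyme, rose by 0.56 ± 0.09 in knockout, and Rxra, the partner receptor of LXR, fell by 0.59 ± 0.08 in knockout. Mylip itself did not pass between diets in either genotype.

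**Figure D5:**
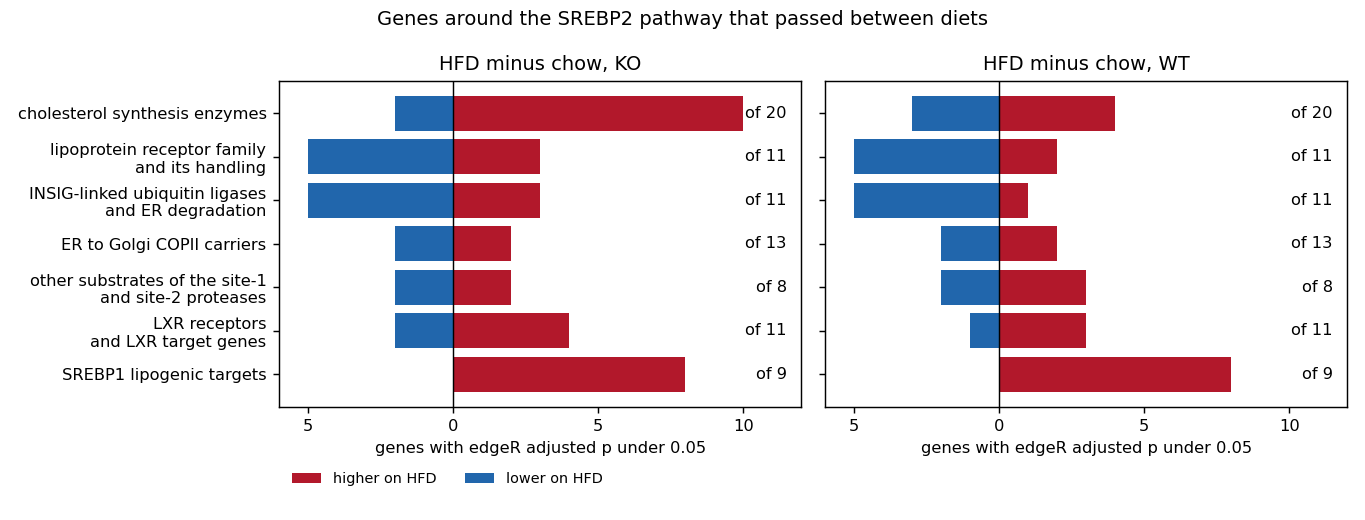
Genes of 7 lists with an edgeR adjusted p under 0.05 between diets (horizontal axes, number of genes; right of 0 higher on high-fat diet, left of 0 lower), with the number tested at the right. Cholesterol synthesis enzymes show 10 higher and 2 lower in knockout, and 4 higher and 3 lower in wild type.

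Markers of other cell types were also compared between diets, and each count below is of markers that passed. Of all genes tested, 17.4% passed as higher and 16.2% as lower in knockout. In wild type 15.2% passed as higher and 14.2% as lower. Lipid-associated macrophage markers rose for 8 of 8 in both genotypes, with a summed level of 152 to 239 CPM in high-fat knockout against 42.9 to 56.3 CPM in chow knockout, and 175 to 361 CPM in high-fat wild type against 40.3 to 53.6 CPM in chow wild type. Stellate cell and fibroblast markers rose for 8 of 10 in knockout (418 to 540 CPM summed on high-fat diet, 190 to 310 on chow) and 9 of 10 in wild type (421 to 701 CPM on high-fat diet, 194 to 234 on chow). Kupffer cell and macrophage markers rose for 3 of 10 in knockout (283 to 556 CPM on high-fat diet, 248 to 288 on chow) and 7 of 10 in wild type (273 to 582 CPM on high-fat diet, 123 to 265 on chow). Sinusoidal endothelial markers did not share a direction: 4 of 10 fell in knockout (208 to 289 CPM on high-fat diet, 276 to 336 on chow) and 4 of 10 rose in wild type (239 to 317 CPM on high-fat diet, 207 to 258 on chow). None of the markers in these 4 lists was at 0 in every library of a group. Of 4 neutrophil markers tested, 1 rose in knockout (4.16 to 6.94 CPM on high-fat diet, 2.55 to 5.52 on chow) and 4 rose in wild type (4.97 to 11.6 CPM on high-fat diet, 1.58 to 2.35 on chow, with Mmp8 at 0 in chow wild type). Of 5 erythroid markers, none passed in knockout (381 to 1410 CPM on high-fat diet, 382 to 465 on chow) and 4 rose in wild type (673 to 1550 CPM on high-fat diet, 394 to 474 on chow). Of 6 cholangiocyte markers tested, 2 rose in each genotype, Spp1 and Krt19. Spp1 is also on the lipid-associated macrophage list, so it enters the counts and sums of both. The cholangiocyte sums were 63.4 to 113 CPM in high-fat knockout, 87.1 to 224 in high-fat wild type, 19 to 28.8 in chow knockout and 21.3 to 41 in chow wild type. Of 6 adipocyte markers, Plin1, Lep and Retn were absent from the counts and Adipoq was not tested. The 2 that were tested, Fabp4 and Cidec, rose in each genotype. Summed levels were 34 to 78.9 CPM in high-fat knockout, 64.3 to 96.2 in high-fat wild type (Adipoq at 0), 13 to 24.9 in chow knockout and 20.3 to 28.4 in chow wild type. No T and NK cell or B and plasma cell marker passed. Their part in the diet results was not tested.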

How the data were processed

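Estimated counts per gene for 16 liver libraries were deposited by the authors as 1 table. Per the labels' protocols, RNA was depleted with a Ribo-Zero kit, reads were aligned by TopHat2, and Cuffdiff gave abundances. The submitters' processing notes name mm10. Not given in the sources used here: tool versions, the strand setting and the step behind these estimated counts. The library kit in the protocols is one for small RNA, which was not reconciled with the long RNA measured. Although the name speaks of FPKM, 32.8% to 37.9% of a library's values were exactly whole and totals differed. Spreadsheet dates had replaced gene names, of which 20 were recovered by position and 2 were left. Reads of overlapping genes could be shared.

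Each library took its group from its own labels. Counts were rounded, filtered with filterByExpr of edgeR 4.0.16 (16830 genes), scaled by TMM and fitted in 1 robust quasi-likelihood model of 4 groups with 12 residual degrees of freedom. P-values were two-sided and Benjamini-Hochberg adjusted over all genes within each of 6 comparisons, with a threshold of 0.05. The standard error is the absolute log2 fold change over the square root of F. Alternatives were DESeq2 1.42.0 size factors and Wald test, voom of limma 3.58.1, other filters, fewer groups or libraries, and no ribosomal RNA row.

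The 7 genes and the lists were chosen with earlier results of these data known. Named list genes were the 2 with the smallest p among those that passed in each diet comparison; Srebf1 and Hnf4a were added as links to the 7 genes or to the markers, and some genes of the lists are not reported here. Promoter and miRNA sequences are from RefSeq and gene models from GENCODE.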

Additional observations from a re-analysis of the deposited data

Results flagged for a closer look

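The 7 genes and Srebf1 were each examined in every group of 4 or 5 libraries, for a library far from the rest. Chow wild type (n = 3) was not examined. Of these 24 sets of a gene and a group, which share the same libraries, 1 held such a library. Chance alone gives about 1 in 20 sets. Scap in high-fat knockout 1 was the highest of its group at 83.6 CPM, with the other 4 at 75.2 to 77.4 CPM. It remained below the lowest chow library, at 106 CPM.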

How the results depend on the processing

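No paired analysis was possible because replicate numbers follow accession order and pair nothing. Of 994 recomputed log2 fold changes of the 7 genes, 950 kept direction and side of the threshold, 4 lost and 2 gained a call, and 38 changed sign, all 38 without a call. Scap between diets passed in all 24 alternatives in both genotypes, and Insig1 in knockout in all 24. Insig2 in knockout passed in 20 of 24, with values given above. In wild type 2 genes passed with the groups compared alone (Insig1 added), and leaving out single libraries gave 1 to 2 (Mylip added without chow wild type 1). Sign changes touched values near 0. On leaving out each library in turn, knockout minus wild type under the high-fat diet ran from -0.041 to 0.1 for Srebf2 and -0.054 to 0.027 for Mbtps1. On chow it ran from -0.076 to 0.012 for Scap, -0.047 to 0.204 for Insig2, -0.041 to 0.093 for Mbtps1 and -0.074 to 0.039 for Mbtps2. For the mean of both diets the ranges were -0.073 to 0.013 for Srebf2, -0.024 to 0.02 for Scap, -0.151 to 0.033 for Insig1, -0.117 to 0.028 for Insig2, -0.03 to 0.037 for Mbtps1 and -0.143 to 0.045 for Mylip. For the difference between diets Mbtps1 ran from -0.111 to 0.023, and between diets in wild type Mbtps2 ran from -0.011 to 0.061. With high-fat knockout 1 and chow wild type 3 both left out, Scap was 0.008 on chow, 0.005 for the mean and -0.007 for the difference, and the mean was 0.035 for Insig1 and 0.024 for Insig2. The same change turned the median r with cholesterol synthesis genes to -0.25 for Insig2 and 0.14 for Mbtps1. The cause was not tested. Over all genes, edgeR called 1 between knockout and wild type under the high-fat diet, 1 on chow, 3 for the mean and 0 for the difference; DESeq2 called 8, 2, 5 and 13 and voom 2, 0, 1 and 0 in that order, no filter gave 3 under the high-fat diet, and the stricter filter gave 0 in each. Fits of the groups compared alone gave 4 under the high-fat diet and 0 on chow. With 3 to 5 libraries a group precision is limited, as the 95% interval of -0.85 to 0.21 for Insig1 between genotypes on chow shows.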
